A study of Homo sapiens with 30 samples.

Results

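H1299 cells that expressed p53 from a vector carrying a single *O*6-methylguanine (p53 O6-meG) were compared with cells that expressed wild type p53 from an undamaged vector, 24 h after transfection. The comparison rests on 6 RNA-seq libraries of 30 in the series, 3 of p53 O6-meG and 3 of wild type p53, taken by their group labels. H1299 is a lung carcinoma line without p53 of its own. Cells at passage 7 to 12 were transfected transiently and sorted for GFP, which every vector also encodes, so that all results come from 1 cell line with p53 driven by a vector. The lesion lay on the template strand at codon 248. Neither group received O6-benzylguanine, so the repair protein AGT could act in both, and the comparison asks what differed once the lesion could be repaired. The reference groups at 24 h were pGFP (GFP without p53), RW mutant p53 (changed at codon 248) and p53 TM, in which the O6-meG vector was used in cells given 10 µM O6-benzylguanine, each with 3 libraries.

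AGT, the product of *MGMT*, takes the methyl group off O6-meG in a single step and is used up in doing so. Where the lesion stays, RNA polymerase II can insert uridine opposite it, which is called transcriptional mutagenesis (TM), and codon 248 lies in the DNA-binding domain of p53. Wild type p53 is a transcription factor that raises genes of cell cycle arrest, apoptosis and DNA repair together with its own inhibitor *MDM2*. Many cell cycle genes fall with p53 indirectly, through p21 and repressors that act at E2F sites.

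The 6 libraries held 32541866 to 46469960 counts each, and all 30 held 32302699 to 71950532. Levels are given as CPM, the count scaled to a common library size, without correction for gene length. The keratins *KRT8* (130 to 157 CPM) and *KRT18* (331 to 438 CPM) and vimentin, *VIM* (2709 to 3358 CPM), were present in all 6 libraries, whereas the epithelial adhesion gene *EPCAM* was near 0 (0.143 to 0.383 CPM). Of 6 markers of blood, endothelial, stromal and liver cells *CD3E* was not found by name among the genes counted. Of the others only *PECAM1* (0.236 to 1.005 CPM), *COL1A1* and *ALB* had counts enough to be tested, and none of these passed. Libraries of the same replicate number deviated together, with correlations of 0.801, 0.784 and 0.761 between the wild type and O6-meG libraries of replicates 1, 2 and 3. Differences are therefore given from a fit of groups alone over 28 libraries and from a fit of the 15 libraries at 24 h with the replicate number as a block. Adjusted *P* values come from the quasi-likelihood test of edgeR, corrected over all genes tested by the Benjamini-Hochberg method, and a gene passed the test at an adjusted *P* under 0.05. Log2 fold changes are p53 O6-meG over wild type p53 and are followed in parentheses by their 95% interval. Where no fit is named, an interval is from the fit without the block, which ignores the pairing.

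*MGMT*, the gene of AGT, stood at 16.03, 19.4 and 15.6 CPM with wild type p53 and at 17.1, 20.5 and 15.1 CPM with p53 O6-meG. For *MGMT* the log2 fold change was 0.05 (−0.20 to 0.29), so that a difference as large as 1.5-fold in either direction lay outside the interval.

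Few genes separated the groups. Without the block 2 of 21335 genes passed the test, *RET* and *FOXC1*, both lower with p53 O6-meG, which is 0.00937% of the genes tested. An unadjusted *P* under 0.05 was reached by 1058 genes (4.96%), of which 590 were lower and 468 higher. In the same fit 7467 genes separated wild type p53 from pGFP and 4520 separated p53 TM from wild type p53 at 24 h, and both of these comparisons use the same wild type libraries. With the block 74 of 20124 genes passed (0.368%), 67 lower with p53 O6-meG (0.333%) and 7 higher (0.0348%), and 2767 (13.7%) had an unadjusted *P* under 0.05. Of these 74 genes 15 had changed at least 2-fold, all downwards. On the edge of the test, *PTPRU* was called lower at an adjusted *P* of 0.0464 with the block, and *RASD2*, whose value rounds to 0.05, was not.

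The 95% intervals show how large a difference could have been missed. In counts simulated with replicate effects, intervals without the block held 0 for 99% of unchanged genes, so they were wider than their name says. Those with the block held 0 for 95.2%. Without the block the interval lay within a 2-fold change either way for 75.6% of 21334 genes and within 1.5-fold for 57.1%. With the block these shares were 85.5% and 67.6% of 20124 genes. The bound depended on the level of the gene. Between 10 and 100 CPM 99.6% of 7433 genes were held within 2-fold without the block and 100% with it, whereas under 1 CPM the shares were 31.1% of 6852 genes and 50.8% of 5642. Intervals lying wholly beyond a 2-fold decrease were found without the block for *INHBB*, the pseudogene *SERTAD4BP* and ENSG00000198384.8, all under 1 CPM in every one of the 6 libraries. With the block they were found for 5 genes, *INHBB*, *SERTAD4BP*, *PKLR*, *CFAP65* and *RET*, whose upper bound rounds to −1. Of these 4 had a mean level under 1 CPM, and *RET* lay at 1 to 10 CPM. *INHBB*, *CFAP65* (adjusted *P* = 0.012) and *RET* passed the test with the block, and *PKLR* and *SERTAD4BP* did not.

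**Figure D1:**
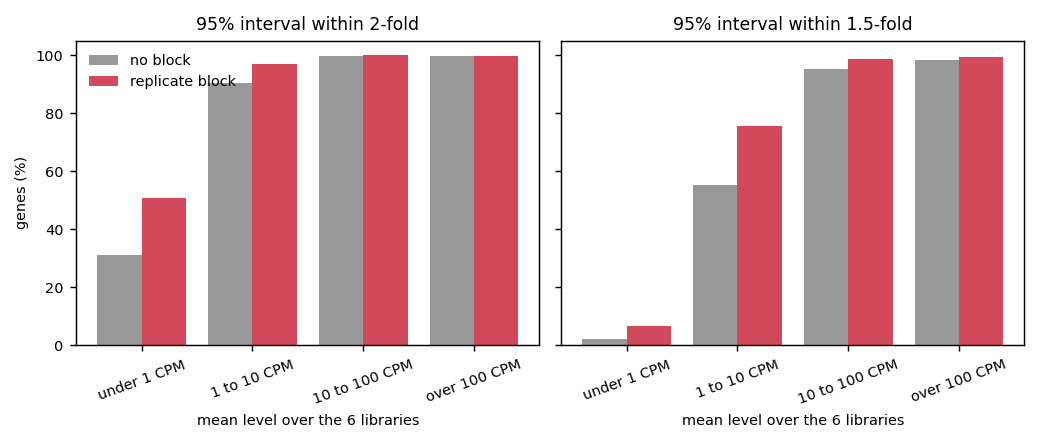
Share of genes (percent, vertical axis) whose 95% interval for the p53 O6-meG to wild type p53 ratio at 24 h lay within 2-fold (left) or 1.5-fold (right), by mean level over the 6 libraries. Grey bars are the fit without the block and red bars the fit with it. Under 1 CPM the 2-fold shares were 31.1% and 50.8%, and at 10 to 100 CPM they were 99.6% and 100%.

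The windows before the start sites of *RET* and *FOXC1*, the genes called in both fits, are shown beside that of *CDKN1A*, the p21 gene and best known target of p53, which did not pass. Each line holds 250 bases up to the RefSeq start (GRCh38.p14, plus strand), and capitals mark the GC box GGGCGG on either strand. *RET* is annotated in hg38 on chromosome 10 from 43077064 to 43130351, *FOXC1* on chromosome 6 from 1609915 to 1613897, and *CDKN1A* on chromosome 6 from 36676460 to 36687337, so that the *CDKN1A* window lies inside the gene, before the start of a shorter transcript.
RET, chr10:43076819-43077068: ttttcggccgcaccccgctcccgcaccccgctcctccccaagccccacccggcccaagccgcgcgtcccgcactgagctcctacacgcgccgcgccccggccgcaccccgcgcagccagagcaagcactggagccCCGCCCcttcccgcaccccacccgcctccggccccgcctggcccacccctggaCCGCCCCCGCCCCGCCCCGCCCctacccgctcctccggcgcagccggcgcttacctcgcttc
FOXC1, chr6:1609665-1609914: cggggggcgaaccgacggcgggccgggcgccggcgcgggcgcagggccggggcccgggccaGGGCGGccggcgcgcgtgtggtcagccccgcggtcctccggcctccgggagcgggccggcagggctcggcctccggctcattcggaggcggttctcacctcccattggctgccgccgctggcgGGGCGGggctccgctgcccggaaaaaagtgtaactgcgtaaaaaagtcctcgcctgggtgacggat
CDKN1A, chr6:36678464-36678713: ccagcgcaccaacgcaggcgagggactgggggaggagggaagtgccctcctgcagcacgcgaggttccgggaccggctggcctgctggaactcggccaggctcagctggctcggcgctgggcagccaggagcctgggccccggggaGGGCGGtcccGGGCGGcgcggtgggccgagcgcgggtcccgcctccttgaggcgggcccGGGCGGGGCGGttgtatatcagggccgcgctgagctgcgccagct
The *RET* window is 79.6% G and C with 5 GC boxes, that of *FOXC1* 76.8% with 2, and that of *CDKN1A* 76.4% with 4. The TATA box TATAAA and the consensus of a p53 half-site, searched on both strands, are in none of the 3 windows. Of the 67 lower genes 43 have such a window, of which 27 (62.8%) hold a GC box, 1 a TATA box and 1 a p53 half-site (2.33% each). Among the 12920 windows of all genes tested the shares were 65.1%, 6.09% and 4.56%.

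*RET* encodes the receptor tyrosine kinase for ligands of the GDNF family. It stood at 3.74, 3.03 and 2.27 CPM in the wild type p53 libraries and at 0.854, 1.46 and 1.06 CPM in the O6-meG libraries, and the groups did not overlap. The log2 fold change of *RET* was −1.40 (−1.89 to −0.91) with adjusted *P* = 0.048, and −1.39 (−1.79 to −1) with adjusted *P* = 0.0062 with the block. In pGFP *RET* lay at 0.0267 to 0.0462 CPM, below the level of 3 counts in any of the 6 libraries (0.0644 to 0.0884 CPM), and in p53 TM at 0.201 to 0.302 CPM. *RET* was thus nearly silent without p53, highest with wild type p53 and intermediate with p53 O6-meG.

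*FOXC1*, a forkhead transcription factor, stood at 19.9, 15.8 and 17.6 CPM with wild type p53 and at 9.75, 10.8 and 13.3 CPM with p53 O6-meG, again without overlap. Its log2 fold change was −0.65 (−0.88 to −0.42) with adjusted *P* = 0.048, and −0.66 (−0.87 to −0.45) with adjusted *P* = 0.0065 with the block. Unlike *RET*, *FOXC1* was present without p53, at 9.87 ± 0.500 CPM in pGFP and 10.5 ± 0.390 CPM in p53 TM (SD, n = 3 each), and the mean in p53 O6-meG was 11.3 ± 1.84 CPM.

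Both calls without the block depended on single libraries. *FOXC1* still passed when O6-meG replicate 3 was left out (adjusted *P* = 0.011) and *RET* when wild type replicate 3 was left out (adjusted *P* = 0.02). No gene passed in edgeR without O6-meG replicate 1, O6-meG replicate 2, wild type replicate 1 or wild type replicate 2, where 1907, 920, 866 and 1194 genes had an unadjusted *P* under 0.05. In those settings the adjusted *P* ran from 0.068 to 0.86 for *RET* and from 0.059 to 0.86 for *FOXC1*. With the block, leaving out a library left 1 call (O6-meG replicate 1), 4 (O6-meG replicate 2), 7 (O6-meG replicate 3), 3 (wild type replicate 1), 16 (wild type replicate 2) or 110 (wild type replicate 3) in place of 74. All 74 genes had the same sign as before in each of these fits.

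The 67 genes lower with the block had log2 fold changes in that fit from −2.27 to −0.27, with a median of −0.73. *SIRPA*, which encodes a receptor for CD47, had the smallest adjusted *P* (0.0016). It stood at 24.6, 15.8 and 12.5 CPM with wild type p53 and at 9.28, 7.81 and 7.75 CPM with p53 O6-meG. All wild type libraries of *SIRPA* lay above all O6-meG libraries, and the log2 fold change was −1.05 (−1.30 to −0.80) with the block and −1.09 (−1.68 to −0.49) without it, where the adjusted *P* was 0.51. In pGFP *SIRPA* was at 2.23 ± 0.751 CPM and in p53 TM at 3.44 ± 1.60 CPM (SD, n = 3 each).

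The other genes among the 10 smallest *P* values on the lower side included secreted ligands. *IHH*, the Indian hedgehog ligand, was at 4.75, 3.22 and 2.62 CPM with wild type p53 and at 1.68, 1.61 and 0.720 CPM with p53 O6-meG. With the block *IHH* had a log2 fold change of −1.39 (−1.81 to −0.96) with adjusted *P* = 0.0062. *GDNF*, a ligand that signals through *RET*, was at 13.04, 8.09 and 7.97 CPM against 6.10, 4.51 and 5.12 CPM, a log2 fold change with the block of −0.88 (−1.15 to −0.60) with adjusted *P* = 0.0062. In both genes all wild type libraries lay above all O6-meG libraries. *INHBB*, the beta B subunit of activin, had the lowest estimate of the 67, −2.27 (−2.97 to −1.56) with adjusted *P* = 0.0062 with the block. Its levels were low, at 0.779, 0.627 and 0.763 CPM against 0.177, 0.150 and 0.115 CPM, and the lowest library held 4 counts.

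*TBX2*, a T-box repressor, was at 43.97, 35.3 and 29.7 CPM with wild type p53 and at 30.3, 24.3 and 22.1 CPM with p53 O6-meG, a log2 fold change with the block of −0.51 (−0.66 to −0.35) with adjusted *P* = 0.0062. Its O6-meG library was lower in each pair, but the groups overlapped. The transcriptional co-regulator *ZMIZ1* was at 17.3, 15.2 and 13.6 CPM against 11.5, 9.12 and 10.1 CPM, a log2 fold change with the block of −0.59 (−0.77 to −0.42) with adjusted *P* = 0.0062. The phospholipase *PLCH2* was at 2.29, 2.36 and 1.69 CPM against 0.884, 0.816 and 0.777 CPM, or −1.36 (−1.78 to −0.95) with adjusted *P* = 0.0062 with the block. The groups did not overlap in *ZMIZ1* and *PLCH2*. *AVIL*, which encodes the actin-binding protein advillin, fell in each pair (−0.64 with the block, adjusted *P* = 0.0062) while its wild type libraries ranged widely, at 9.02, 3.77 and 4.94 CPM against 5.57, 2.58 and 3.17 CPM. In pGFP *AVIL* was at 5.82, 2.60 and 3.28 CPM, below the wild type library of the same number in each replicate.

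Further genes past the test with the block are named here after their values were seen. Ligands lower with p53 O6-meG were the bone morphogenetic protein *BMP2* (log2 fold change with the block −0.71), endothelin 1, *EDN1* (−0.93), *WNT11* (−0.75), the guidance ligand *SLIT2* (−0.65) and the Notch ligand *JAG1* (−0.34). Transcription factors were *TFAP2A* (−0.66), *NR2F1* (−0.58), *SOX18* (−0.94), *SOX8* (−0.77), *HOXC10* (−0.55) and *OSR2* (−0.57). *TFAP2A* was at 42.5, 28.7 and 28.9 CPM with wild type p53 and at 22.5, 18.8 and 21.7 CPM with p53 O6-meG, without overlap (adjusted *P* = 0.0071 with the block). *RPRM*, the gene of Reprimo, which acts in G2 arrest downstream of p53, was at 17.5, 14.4 and 12.9 CPM against 10.2, 10.7 and 8.67 CPM and 2.58 CPM in pGFP, a log2 fold change with the block of −0.59 (−0.79 to −0.39) with adjusted *P* = 0.011. Among genes of chromatin and RNA processing were the histone demethylase *KDM6B* (−0.46), the BAF complex subunit *ARID1B* (−0.28) and the splicing factor *SRRM2* (−0.37). *ARID1B* shows how small a called difference could be, at 117, 104.6 and 114 CPM against 94.9, 89.2 and 93.9 CPM (adjusted *P* = 0.016 with the block).

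Not all of the 67 were genes that p53 raised. The beta globin gene *HBB* was at 1004, 399 and 865 CPM with wild type p53, at 726, 259 and 609 CPM with p53 O6-meG and at 944 CPM on average in pGFP. With the block *HBB* had a log2 fold change of −0.53 (−0.75 to −0.32) with adjusted *P* = 0.029. *HBD*, the delta globin gene, had −0.53 with adjusted *P* = 0.017 with the block, and since the globin genes are close copies their counts may share reads. Replicate 2 held the lowest *HBB* in both groups, and the groups overlapped.

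**Figure D2:**
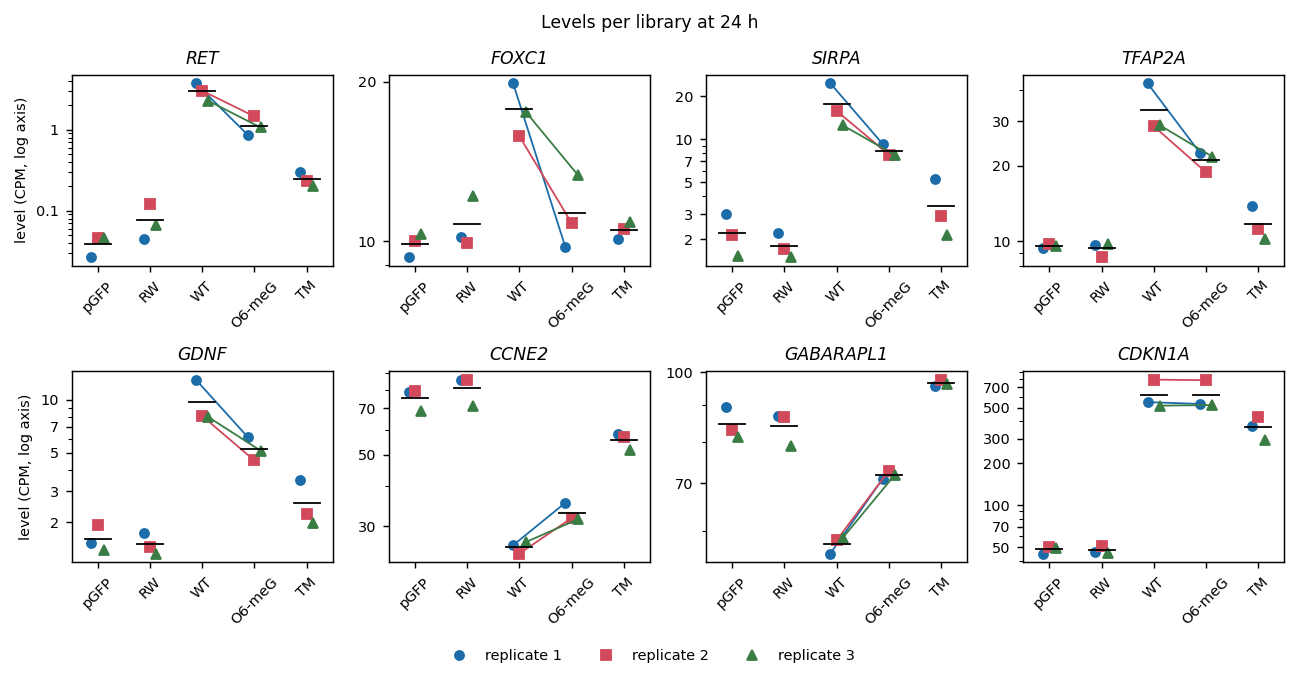
Levels in CPM (vertical log axis) of 8 genes in each library at 24 h, by vector and treatment (horizontal axis). Symbols mark replicates, lines join wild type p53 and O6-meG libraries of the same number, and black bars are means. In *RET*, *FOXC1*, *SIRPA*, *TFAP2A* and *GDNF* the 3 wild type libraries lie above the 3 O6-meG libraries, in *CCNE2* and *GABARAPL1* below them, and in *CDKN1A* the groups overlap.

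The 7 genes higher with the block had log2 fold changes in that fit of 0.28 to 0.35. Cyclin E2, *CCNE2*, which drives entry into S phase, was at 26.1, 24.6 and 26.7 CPM with wild type p53 and at 35.5, 31.8 and 31.5 CPM with p53 O6-meG. The log2 fold change of *CCNE2* was 0.34 (0.21 to 0.47) with adjusted *P* = 0.018 with the block, and 0.35 (0.13 to 0.57) with adjusted *P* = 0.66 without it. In pGFP *CCNE2* was at 75.5 CPM and in p53 TM at 55.6 CPM on average, so that wild type p53 gave the lowest level and p53 O6-meG the next. *GABARAPL1*, of the autophagy ATG8 family, was at 55.8, 58.3 and 58.8 CPM against 70.96, 72.8 and 71.98 CPM, a log2 fold change with the block of 0.31 (0.21 to 0.42) with adjusted *P* = 0.0079. The others were the HMG-box repressor *HBP1* (0.28), the kinetochore gene *CENPQ* (0.33), *CREBRF* (0.34) and the zinc finger genes *ZNF227* (0.35) and *ZNF189* (0.34). Groups overlapped in *CREBRF* and in none of the other 6, where 3.76% of all genes tested had every O6-meG library above. The 7 were called on these same libraries, so this separation is not independent evidence. Of the 7 genes 6 were lower with wild type p53 than with pGFP past the test, against 3098 of all 21335 genes. That contrast shares the wild type libraries, and the choice of higher genes favours its direction. The mean in p53 TM was above that in p53 O6-meG for all 7, against 10472 of all genes.

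Libraries at 6 h did not enter the fit with the block. There 2 O6-meG libraries were compared with 3 wild type libraries, because the title of O6-meG replicate 2 names both p53 O6-meG and p53 TM. The 6 h estimate was below 0 for all 67 lower genes, against 52.4% of all genes tested, with a median of −0.76. With all 30 libraries grouped by the genotype label 66 of the 67 were below 0 at 6 h, and grouped by the first part of the title all 67 were. Of the 7 higher genes 6 were above 0 at 6 h, with *CREBRF* (−0.03) the exception. *RET*, for example, was at 0.283, 0.504 and 0.593 CPM with wild type p53 at 6 h and at 0.159 and 0.111 CPM with p53 O6-meG. By itself the 6 h comparison over the 28 libraries had no gene past edgeR's test without a block (2131 with an unadjusted *P* under 0.05), 35 by DESeq2 and 1370 in edgeR with a block within each time. Without a block edgeR called 24 when every gene with at least 1 count was tested, and 1 with all 30 libraries under either grouping. The labels do not say whether cultures at the different times came from the same transfections. The change of the difference from 6 h to 24 h, tested directly, passed for 0 of 21335 genes in edgeR and in DESeq2, with 660 genes (3.09%) at an unadjusted *P* under 0.05 in edgeR.

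**Figure D3:**
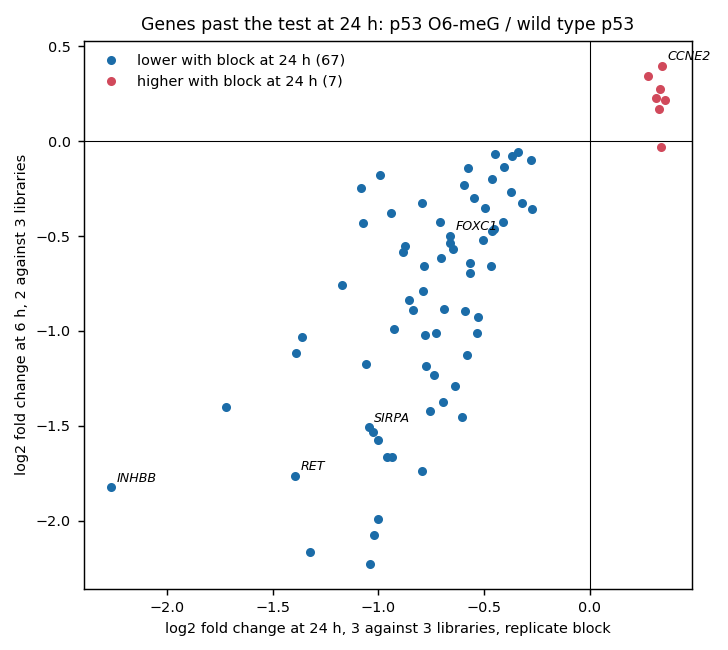
Log2 fold change of p53 O6-meG over wild type p53 at 24 h with the replicate block (horizontal axis) and at 6 h (vertical axis) for the 74 genes past the test at 24 h. The 67 lower genes all lie below 0 at 6 h, and 6 of the 7 higher genes lie above 0.

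The 67 lower genes can also be set beside their response to p53. At 6 h, in libraries the comparison did not use, wild type p53 had raised 29 of them at least 2-fold over pGFP past the test, against 4.39% of all genes. At 24 h it had raised 45 of them at least 2-fold, against 9.22% of all genes, in a contrast that shares the wild type libraries. Over these 45 genes p53 O6-meG kept a median of 46.5% of the rise from pGFP to wild type p53, and over all genes so raised 79.7%, a difference in the direction that the choice of lower genes fixes. *LAMA3*, a laminin chain, kept the most (64.9%). The mean in p53 TM was below that in p53 O6-meG for 59 of the 67, against 10862 of all 21335 genes. The mean in p53 TM was above that in pGFP for 51, against 53.3% of all genes. All O6-meG libraries lay below all wild type libraries in 44 of the 67, where 3.88% of all genes tested did, and 7.64% had groups without overlap in either direction. The 67 were called on these same libraries, so this separation is not independent evidence. The genes had a median GC content of 56.7%, against 47.7% for all genes, and 39 of the 67 (58.2%) were under 10 CPM with wild type p53, as were 53.6% of all genes. With an offset for GC content added to the block 84 genes passed, 67 of them among the 74.

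Of 75 listed canonical targets of p53 72 could be tested, and none passed edgeR's test with or without the block, where 10 and 3 had an unadjusted *P* under 0.05. DESeq2 called none without the block and *PRDM1* and *NEAT1* with it. A block fitted to the 6 libraries alone, in which 602 genes passed, called 10 of the 72, with *BMP7*, *NEAT1*, *NOTCH1*, *PLK2*, *PRDM1* and *VDR* lower and *CCNG1*, *POLH*, *RRM2B* and *SESN1* higher. The median log2 fold change of the 72 was 0.0053 without the block, against 0.0018 for all genes. The interval lay within 2-fold for 70 of the 72 without the block and for all 72 with it, and within 1.5-fold for 61 and 64. A larger list, the 190 genes that the study names as raised by p53 at 24 h, had 118 estimates below 0 (62.1%, against 49.6% of all genes) and 60 genes lower in all 3 pairs (31.6%, against 19%). Its median was −0.04 and 1 gene was called lower with the block. These genes were chosen on these same libraries, so their direction is not independent evidence.

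*CDKN1A*, whose product p21 inhibits cyclin-dependent kinases, stood at 547, 793 and 516 CPM with wild type p53 and at 531, 785 and 521 CPM with p53 O6-meG, against 48.3 ± 3.00 CPM in pGFP (SD, n = 3). The log2 fold change of *CDKN1A* was −0.01 (−0.33 to 0.30), and −0.02 (−0.22 to 0.18) with the block. The replicates differed far more from each other than the members of a pair did. In p53 TM *CDKN1A* was at 362 ± 67.1 CPM (SD, n = 3). *MDM2*, the ubiquitin ligase that limits p53, was at 1842, 1706 and 1247 CPM against 1914, 1897 and 1362 CPM, a log2 fold change of 0.11 (−0.19 to 0.41), and *PPM1D*, a phosphatase that restrains p53, had 0.08 (−0.12 to 0.28). The 8 feedback genes ran from −0.11 (*ZNF385A*) to 0.18 (*CCNG1*).

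Among the 10 arrest genes *BTG2*, an antiproliferative gene, was at 90.5, 82.3 and 74.5 CPM against 88.96, 91.1 and 73.8 CPM (log2 fold change 0.04 (−0.23 to 0.31)), and *GADD45A* had −0.04 (−0.40 to 0.32). *PLK2*, a polo-like kinase, was lower in each pair, at 452, 329 and 312 CPM against 335, 281 and 297 CPM. Its log2 fold change was −0.26 (−0.52 to −0.01) with adjusted *P* = 0.99, and 0.3 with the block. The interval reaching furthest down was that of *SFN*, the gene of 14-3-3 sigma, −0.30 (−0.84 to 0.23).

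Of the 10 apoptosis genes *BBC3*, which encodes PUMA, was at 16.7, 20.8 and 14.2 CPM against 16.7, 20.2 and 14.9 CPM, a log2 fold change of 0.0033 (−0.32 to 0.32). *BAX*, the pore-forming effector, had 0.05 (−0.15 to 0.24), and *PMAIP1*, the gene of NOXA, −0.21 (−0.55 to 0.12). The death receptor *FAS* was at 70.8, 57.7 and 46.6 CPM against 68.4, 59.5 and 48.6 CPM (0.01 (−0.28 to 0.30)). *TNFRSF10B*, a TRAIL receptor, had 0.12 (−0.07 to 0.31) and *PIDD1*, a death domain gene, −0.14 (−0.56 to 0.28). The groups overlapped in each of these genes.

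Estimates were above 0 for 7 of the 8 targets in DNA repair, against 10759 of all 21335 genes. In edgeR 0 of the 8 without the block and 1 with it, higher, had an unadjusted *P* under 0.05. *XPC*, which recognises damage in nucleotide excision repair, was at 89.1, 80.1 and 71.3 CPM against 98.7, 83.9 and 78.9 CPM (0.12 (−0.06 to 0.30)), *DDB2* had 0.11 (−0.09 to 0.31) and the translesion polymerase *POLH* 0.21 (−0.16 to 0.58). Of the 8 genes 5 were higher in all 3 pairs, these 3 among them, against 18.4% of all genes, and the groups of these 3 overlapped. Of the 11 metabolic and stress genes tested *SESN1*, a sestrin, had the highest estimate, at 188, 174 and 140 CPM against 214, 192 and 160 CPM (0.17 (−0.07 to 0.42)). *SESN2* had 0.02 (−0.17 to 0.22) and *TIGAR*, which lowers glycolysis, 0.06 (−0.17 to 0.30). The least well bounded was *CPT1C* (−0.19 (−0.94 to 0.56)), measured under 1 CPM.

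Targets for secreted proteins, receptors and transcription factors had 9 of 12 estimates below 0 (75%, against 49.6% of all genes). They also had the bounds that reached furthest below 0. *BMP7*, a bone morphogenetic protein, was at 2.81, 2.88 and 1.57 CPM with wild type p53 and at 1.94, 1.65 and 1.18 CPM with p53 O6-meG, a log2 fold change of −0.60 (−1.19 to −0.02) with adjusted *P* = 0.99, and 0.095 with the block. *PRDM1*, a transcriptional repressor, was at 17.4, 8.70 and 8.14 CPM against 9.90, 6.42 and 6.77 CPM, or −0.57 (−1.16 to 0.03) with adjusted *P* = 0.99, and 0.052 with the block. The O6-meG library was lower in every pair of both genes, and theirs were the only intervals of the 72 without the block to reach beyond a 2-fold decrease. *ADGRG1*, an adhesion receptor, had −0.36 (−0.91 to 0.20), *VDR*, the vitamin D receptor, −0.23 (−0.49 to 0.04), *CAV1*, of caveolae, −0.14 (−0.46 to 0.18), and the stress factor *ATF3* −0.08 (−0.40 to 0.23). *PHLDA3*, an inhibitor of AKT, reached furthest up with 0.32 (−0.26 to 0.90), and the secreted stress factor *GDF15* had 0.10 (−0.19 to 0.39).

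Of the non-coding RNAs *NEAT1*, the scaffold of paraspeckles, was at 239, 308 and 332 CPM against 232, 237 and 205 CPM, without overlap. Its log2 fold change was −0.38 (−0.80 to 0.04) with adjusted *P* = 1, and −0.39 (−0.60 to −0.18) with adjusted *P* = 0.092 with the block. The host gene of miR-34a, *MIR34AHG*, had 0.18 (−0.34 to 0.69) and *LINC-PINT* −0.09 (−0.33 to 0.14).

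**Figure D4:**
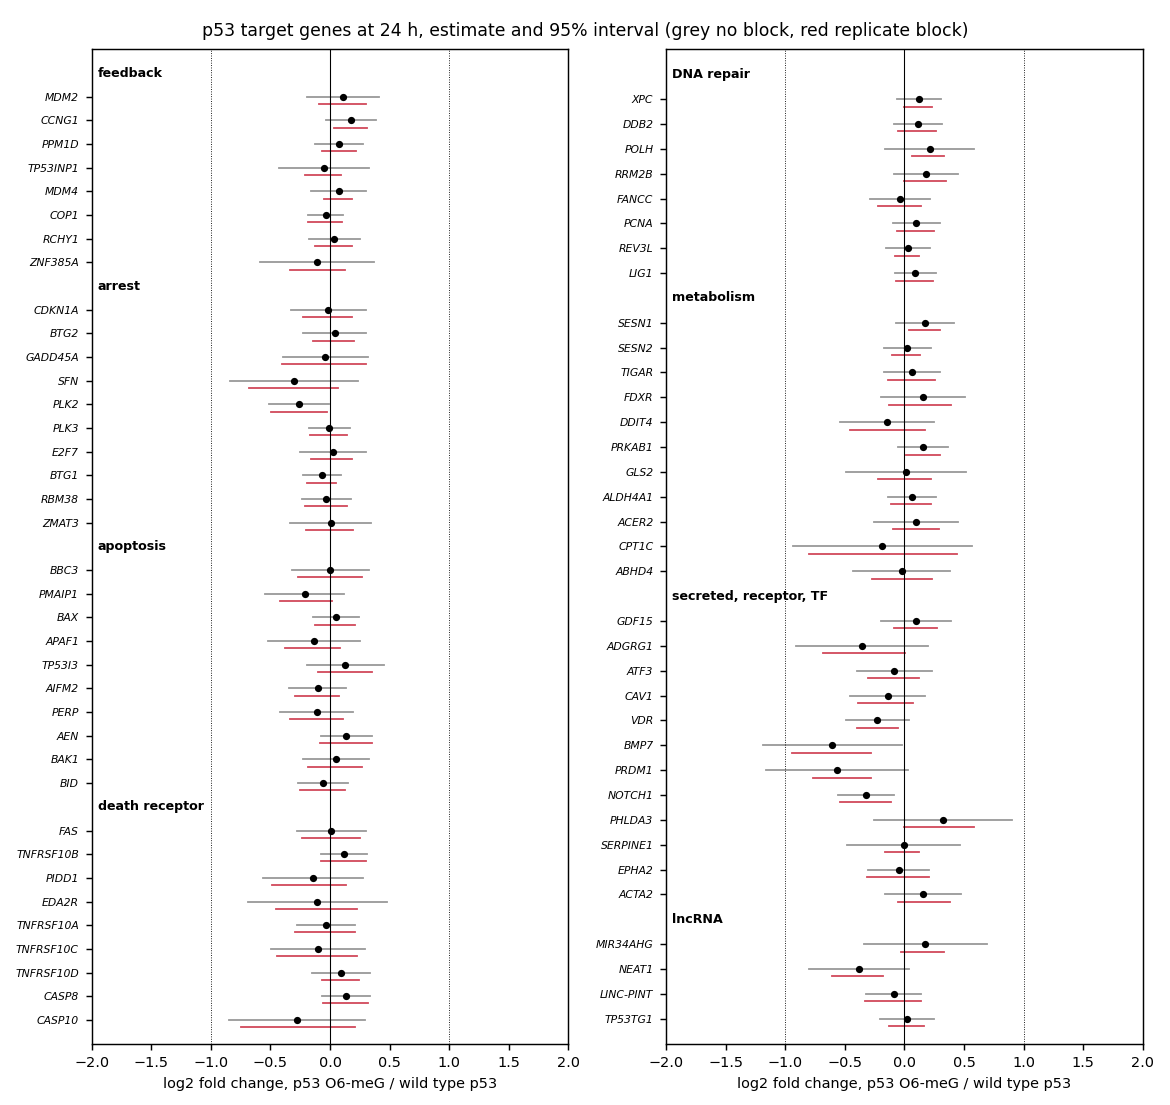
Log2 fold change of p53 O6-meG over wild type p53 at 24 h (horizontal axis) for the 72 tested p53 targets in 8 groups. Points and grey lines are estimates and 95% intervals without the block, red lines the intervals with it, and dotted lines a 2-fold change. The grey lines of *BMP7* and *PRDM1* cross a 2-fold decrease and no red line does.

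A wider set of p53 responsive genes was taken from the 6 h libraries, namely the 937 genes that wild type p53 raised at least 2-fold over pGFP at 6 h. The contrast that chose them compares libraries at 6 h, in a fit whose filter and spread also draw on the libraries at 24 h. At 24 h their median log2 fold change between p53 O6-meG and wild type p53 was −0.21, with pair medians of −0.21, −0.23 and −0.175, against 0.0018 for all genes. Estimates were below 0 for 751 genes (80.1%, against 49.6% of all genes), and 479 were lower in all 3 pairs (51.1%, against 19%). With the block 29 of 896 tested passed as lower (3.24%, against 0.333%) and none as higher. The median without the block moved with single libraries, to −0.39 without O6-meG replicate 1, −0.0838 without O6-meG replicate 3, −0.044 without wild type replicate 1 and −0.345 without wild type replicate 3. With the block it stayed between −0.254 and −0.159 when any 1 of the 6 was left out.

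Within these 937 genes the median differed with the level in pGFP at 6 h, a split made after the data were seen. The 619 genes under 1 CPM had a median of −0.31, against −0.12 over all 7542 genes of that class, and 21 of 578 tested were called lower with the block (3.63%, against 0.553%). The 185 genes at 1 to 10 CPM had a median of −0.16, against −0.03 over all 4144, and 8 were called lower (4.32%, against 0.507%). The 133 genes over 10 CPM had a median of −0.03, against 0.03 over all 9649, and none was called (against 0.114% called lower). Estimates were below 0 for 84.3%, 80.5% and 60.2% of the genes in the classes from lowest to highest, against 61.3%, 56.7% and 37.3% of all genes in these classes. Lower in all 3 pairs were 53.6%, 56.2% and 32.3%, against 24.2%, 22.8% and 13.3%. The shares thus fell with level among all genes too.

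**Figure D5:**
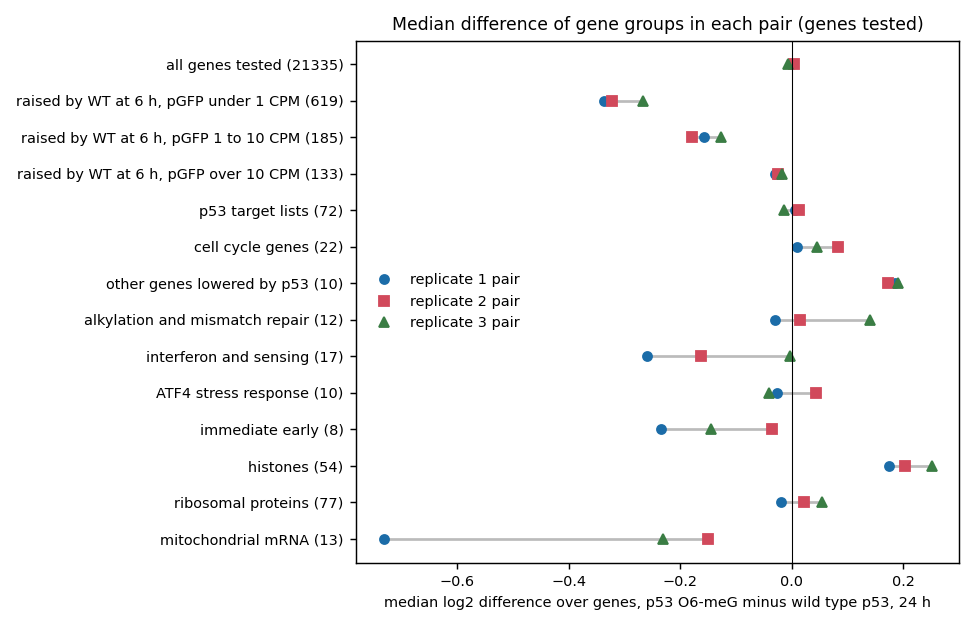
Median log2 difference between p53 O6-meG and wild type p53 at 24 h (horizontal axis) over gene groups, with the number of genes tested in parentheses, in the pairs of replicates 1, 2 and 3. The pair medians are −0.34, −0.32 and −0.27 for the 619 genes raised at 6 h from under 1 CPM, and 0.0052, 0.0132 and −0.0134 for the 72 target genes.

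Of 22 cell cycle genes listed as targets of repression through p21 and E2F, 15 had an estimate above 0, with a median of 0.04, and *CCNE2* passed as higher with the block. Over all genes tested 10759 of 21335 were above 0, with a median of 0.0018. Genes over 10 CPM in pGFP at 6 h, a class that holds all 22, had 6046 of 9649 above 0 and a median of 0.03. Not all of the 22 were lower with wild type p53 here, as *CDC20* was at 234, 259 and 327 CPM, against 213, 258 and 284 CPM in pGFP. *CDK1*, the kinase of mitotic entry, was at 43.4, 61.9 and 51.1 CPM with wild type p53 and at 61.6, 75.2 and 56.7 CPM with p53 O6-meG, against 130 CPM on average in pGFP. Its log2 fold change was 0.31 (−0.0049 to 0.62) with adjusted *P* = 0.99, and 0.1 with the block. DESeq2 with the block and the block over the 6 libraries alone called *CDK1* higher, and the latter called *PLK1* lower. *E2F8* had 0.05 (−0.26 to 0.36), *CCSAP*, of centrioles and the spindle, 0.13 (−0.11 to 0.36), and *PLK1*, a mitotic kinase lower in each pair, −0.20 (−0.47 to 0.07). For 10 further genes that the study names as lowered by p53 all estimates were above 0, with a median of 0.18 and none past edgeR's test in either fit (1 without and 3 with the block at an unadjusted *P* under 0.05) or DESeq2's, while the block over the 6 libraries alone called *HOOK1* higher. *GFI1*, a repressor of transcription, had 0.15 (−0.20 to 0.49), *STOX1* 0.19 (−0.14 to 0.52) and *LEF1*, a Wnt pathway factor, 0.12 (−0.26 to 0.49). These 10 were chosen on these same libraries, so their direction is not independent evidence. That holds too for *CDK1*, *CCNE2*, *E2F8*, *FBXO5*, *ERCC6L* and *CCSAP* of the 22, which the paper names from the same libraries.

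In the lists for alkylation and mismatch repair, the ATF4 stress response, immediate early genes and interferon signalling no gene passed edgeR's test in either fit. The 12 genes of alkylation and mismatch repair had a median of 0.01, and all were held within 1.5-fold in both fits, with 0 and 1 at an unadjusted *P* under 0.05 without and with the block and none called by DESeq2. *MSH6*, which recognises mismatches, had 0.12 (−0.14 to 0.39). The 10 genes of the ATF4 stress response had a median of −0.02, with 0 and 2 at an unadjusted *P* under 0.05 and none called by DESeq2. *ATF4* itself had 0.09 (−0.13 to 0.31), *DDIT3*, which encodes CHOP, 0.12 (−0.25 to 0.49) and *ASNS* −0.04 (−0.44 to 0.37). The 8 immediate early genes had a median of −0.12, with 0 and 2 at an unadjusted *P* under 0.05, and *JUNB* alone was called, as lower, by DESeq2 with the block and by the block over the 6 libraries alone. *FOS* had −0.16 (−0.42 to 0.11), *FOSB* −0.33 (−0.97 to 0.30) and *JUN* −0.11 (−0.73 to 0.51).

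Genes of interferon signalling and nucleic acid sensing had estimates below 0 for all 17 tested, against 49.6% of all genes, with pair medians of −0.26, −0.16 and −0.0041. Of the 17, 8 were lower in all 3 pairs (47.1%, against 19% of all genes). At an unadjusted *P* under 0.05 there were 1 without and 3 with the block, and DESeq2 called none. The block over the 6 libraries alone called *MX1* lower, with 5 at an unadjusted *P* under 0.05. *IFIT1*, an antiviral effector, was at 54.2, 29.4 and 40.01 CPM with wild type p53 and at 36.7, 28.1 and 45.7 CPM with p53 O6-meG (−0.16 (−0.61 to 0.29)), so that replicate 3 went the other way. *IFIT3* had −0.17 (−0.54 to 0.20), with replicate 3 again the higher with p53 O6-meG, and *IFIT2* had −0.03 (−0.47 to 0.41). The lowest estimate was that of *OAS2*, at 0.854, 0.671 and 0.954 CPM against 0.324, 0.365 and 0.633 CPM (−0.91 (−1.82 to −0.0002)).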

How the data were processed

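RNA of GFP-sorted H1299 cells was depleted of ribosomal RNA and sequenced as single reads of 75 cycles. The authors aligned reads to hg38 with STAR 2.5.3a and counted them per gene of GENCODE v27 with featureCounts of Subread 1.5.2. The deposited values used are these raw counts. Whether counting used strand is not given in the sources used here, so overlapping genes may share reads. A deposited table of normalised values was not used. Of 39359 genes 38904 were matched to GENCODE v44 for names and coordinates.

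Tests were run with edgeR 4.0.16 in R 4.3.3 (filterByExpr by group, TMM, quasi-likelihood test, Benjamini-Hochberg). The design without a block held 28 libraries in 10 groups. At 6 h the second replicates of p53 TM and p53 O6-meG, 2 libraries, were left out, since each title names both groups. Intervals use the t distribution and a standard error from the estimate and its F statistic. Differences within pairs use log2 CPM with a prior count of 2. All 30 pairs of libraries at 24 h of the same replicate number, as given in the titles, had correlated deviations from their group means (0.431 to 0.883 over 10327 genes). All were above the limit of 0.1 set for pairing. The 60 pairs of different numbers had a median of −0.461 but ran from −0.749 to 0.461, with 13 above that limit. Deviations within a group sum to 0, so positive values for the same number push those for different numbers below 0. The paper calls the libraries biological triplicates and does not say what a number shares. No 2 libraries of a group agreed within sampling noise. Scripts were tested on counts simulated with replicate effects within each time. Without the block 135 of 197 changed genes were called in the right direction, and 0 of 20979 unchanged genes were called. With the block these counts were 161 of 194 and 11 of 20107.

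Alternatives were DESeq2 1.42.0 or its size factors, other filters, other groupings of the 2 libraries left out, fits of fewer libraries, blocks, and each library left out. A GC offset, DESeq2 with the block and the block without each library were chosen after seeing the data. Genes named are *MGMT*, up to 10 called on each side with the smallest *P*, the first 3 of each list with its called members and the furthest bounds, and the genes discussed with the RNA-seq data in the paper. Some genes that this rule covers are not reported here. Members and lists were chosen with earlier results of these data known. Promoter windows are from RefSeq, GRCh38.p14.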

Additional observations from a re-analysis of the deposited data

How the results depend on the processing

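All values below are for p53 O6-meG against wild type p53 at 24 h. Against 2 genes past the test, of which 1 had changed at least 2-fold, DESeq2 called 8 and 2, and its size factors in edgeR 2 genes. Testing every gene with at least 1 count gave 0 and 0, at least 10 counts in every library 1 and 0, all 30 libraries by genotype 0 and 0, the 15 libraries at 24 h without a block 0 and 0, and the 6 libraries without a block 0 and 0. In those fits 1376, 724, 882, 695 and 450 genes had an unadjusted *P* under 0.05 in edgeR. With the replicate block 74 genes passed over 15 libraries (15 at least 2-fold), 114 within each time over 28 (16) and 602 over the 6 compared (36). Added to the block, a GC offset gave 84 (14) and DESeq2 202 (10), with 67 and 66 of the 74 shared. All 74 kept their sign in every alternative that tested them (50 in that with at least 10 counts). Leaving out each library gave 0 to 2 calls and 0 to 1 at least 2-fold without the block, and with it 1 (0 at least 2-fold), 4 (3) and 7 (3) without O6-meG replicates 1, 2 and 3, and 3 (1), 16 (5) and 110 (21) without wild type replicates 1, 2 and 3.

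The share of genes within 2-fold, 75.6%, was 44.9% with every gene of at least 1 count, and 69.9% to 72.9% with a library left out. The median of the genes raised at 6 h, −0.21, was −0.135 with at least 10 counts, −0.39 to −0.044 with a library left out and −0.254 to −0.159 so with the block. Of 85 genes that the rule for naming covers, 35 changed sign in some alternative, none of them where called. The cause of these differences between settings was not tested. Intervals were widest under 1 CPM, reaching a median of 0.895 on the log2 scale to each side of the estimate without the block, against 0.34 over all genes.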

Other observations

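Estimates for p53 O6-meG against wild type p53 were below 0 for all 13 protein-coding genes of the mitochondrial genome, against 49.6% of all genes. Their pair medians were −0.73, −0.15 and −0.23 on the log2 scale in replicates 1, 2 and 3. *MT-ND4*, a subunit of complex I, was at 186, 56.6 and 110 CPM with wild type p53 and at 112, 48.6 and 83.1 CPM with p53 O6-meG, and passed as lower with the block (adjusted *P* = 0.035). Without the block its adjusted *P* was 1. The mitochondrial ribosomal RNAs had pair medians of −0.89, −1.84 and −1.57 over 2 genes, and ribosomal RNA had been depleted from these libraries. The mitochondrial share of counts ran from 0.31% to 1.12% in the 6 libraries.

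Replication-dependent histone genes had estimates above 0 for 48 of 54 tested, against 10759 of all 21335 genes. Their pair medians were 0.17, 0.20 and 0.25, and 35 were higher in all 3 pairs (64.8%, against 18.4% of all genes). None passed edgeR's test in either fit. The groups overlapped in each, where 3.76% of all genes tested had every O6-meG library above. Their transcripts carry near-identical sequences, so counts may be split between copies. The 77 cytosolic ribosomal protein genes had a median of 0.02. Genes over 60% G and C had pair medians of 0.04, −0.09 and −0.13, and genes up to 40% had 0.0048, 0.08 and 0.04.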
